A study of Mus musculus with 18 samples.

Results

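The tissue kallikrein family was read from RNA sequencing of whole mouse kidney as the entries of the gene table whose symbol was Klk1 or Klk1b followed by a number. The table held 14 such genes among 19545 entries. Of these, 7 reached at least 1 FPKM in at least 3 of the 18 libraries and are described in full, namely Klk1, Klk1b3, Klk1b5, Klk1b8, Klk1b9, Klk1b24 and Klk1b27. FPKM is a read density per length of gene and per reads of the library, so levels of different genes can be set side by side. These 7 genes were chosen by symbol and by their FPKM level in the libraries, not by a test between groups. The family itself was picked with earlier results of these data known. Klk1b8 and Klk1b24 met the minimum in 3 libraries each, some of them in STZ+AOS, a group set against AOS below. Klk1b27 also met it in 3 libraries, and for all of Klk1b8, Klk1b24 and Klk1b27 control 3 was among them. The control group is likewise set against AOS below.

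Klk1 encodes tissue kallikrein, a secreted serine protease that cuts kininogen to release a kinin peptide, which then acts on the bradykinin receptors. In the kidney it is made by cells of the connecting tubule and released into the tubular fluid. The Klk1b genes are close copies of Klk1 that the mouse carries beside it, and they are best known from the submandibular gland, where several of their products bind or process growth factors.

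The kidneys came from ICR mice aged 10 weeks, in 6 groups of 3 libraries. Control mice had no agent named in the labels, and the AOS group received AOS at 10 mg/kg, an abbreviation that the labels leave unexplained. Another 4 groups shared treatment with STZ, the common short form of streptozotocin, which destroys pancreatic beta cells. STZ stood alone in the first of these, was joined by AOS at 10 mg/kg in the second (STZ+AOS), and was joined by FMT, the usual short form of faecal microbiota transplantation, in the third and the fourth. The transfer is labelled AOS 10 mg/kg in STZ+AOS-FMT and control in STZ+control-FMT, taken here as the donors' treatment. The labels number the replicates and do not say whether each is a separate mouse, so the p-values reflect how far these samples scatter, a scatter that could be technical.

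From 11407 to 12607 genes reached 1 FPKM in a library, and 12682 met the minimum of 1 FPKM in 3 libraries and were tested. The depth in reads is unknown, so values near 0.1 FPKM, the smallest step seen for several Klk1b genes, carry no counting interval. Some libraries stood apart from their group. Kap, an androgen-regulated transcript of the proximal tubule, was at 15798 FPKM in control 3 against 150876 and 145522 in control 1 and control 2, and at 144830 FPKM in STZ 1 against 63552 and 14615 in STZ 2 and STZ 3. Cyp11b1, an enzyme of the adrenal cortex, was above 100 FPKM in control 3, STZ+AOS 1 and STZ+AOS 3.

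All 14 genes lie in 1 cluster of 279 kb on chromosome 7, at chr7:43950666-44229622 of GRCm38 (mm10) in RefSeq, and all are read from the plus strand. Klk1 closes the cluster at chr7:44225360-44229622, and Klk1b5 is its nearest neighbour at chr7:44216474-44220703, ending 4656 bases before it. The next 2 tested members are Klk1b3 at chr7:44198191-44202351 and Klk1b24 at chr7:44188234-44192455. Klk1b27 lies at chr7:44052290-44056712. Klk1b9, at chr7:43976061-43980376, and Klk1b8, at chr7:43950666-43954944, stand at the far end. The transcripts are alike over most of their length. Aligned end to end, the GENCODE M21 transcripts of the 13 Klk1b genes matched Klk1 at 82.0 to 94.2% of aligned bases, with Klk1b5 the nearest at 94.2%. The likeness is shown by the coding bases around the catalytic serine, the residue that cuts the substrate. Each stretch holds 60 coding bases joined over an intron, 5′ to 3′ on the plus strand of GRCm38, and capitals mark bases that differ from Klk1.
Klk1: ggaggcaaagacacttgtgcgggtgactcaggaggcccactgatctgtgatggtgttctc
Klk1b5: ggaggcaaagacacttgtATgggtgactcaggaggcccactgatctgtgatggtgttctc
Klk1b3: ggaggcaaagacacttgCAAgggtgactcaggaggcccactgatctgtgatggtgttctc
Klk1b9: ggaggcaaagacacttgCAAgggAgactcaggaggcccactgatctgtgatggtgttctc
Klk1b8: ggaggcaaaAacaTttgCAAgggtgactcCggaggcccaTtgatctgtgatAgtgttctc

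Counted from these sequences, Klk1b5 differed from Klk1 at 2 of 60 bases, Klk1b3 at 3, Klk1b9 at 4 and Klk1b8 at 8. Of the tested members not shown, Klk1b24 differed at 1 base, fewer than Klk1b5, and Klk1b27 at 4. The stretch spans chr7:44229027-44229452 in Klk1 and chr7:44220107-44220537 in Klk1b5, introns included. In Klk1b3 it spans chr7:44201754-44202188, in Klk1b9 chr7:43979779-43980211 and in Klk1b8 chr7:43954350-43954778. Short reads from such stretches can match several members. Of all 50-base stretches of the Klk1b5 transcript, 12.7% occurred letter for letter in Klk1, and 40.5% did so when 2 mismatches were allowed. For the other 5 tested Klk1b genes the exact share was 2.47 to 10.1%. The read length and the handling of reads with several matches are not stated by any source used here, so Klk1b levels may hold reads of Klk1 and of each other, and this share was not tested.

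Klk1 made up nearly all of the family's signal. It ranged from 1192.94 to 2403.1 FPKM over the 18 libraries, with a median of 1558 FPKM, and stood between rank 16 and rank 44 of the 12682 genes by level in each library. Of the summed FPKM of the 14 genes, 99.1 to 99.7% was Klk1. The 13 Klk1b genes together came to 4.69 to 14.06 FPKM.

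Klk1 was at 1774.18, 1517.46 and 2074.24 FPKM in the control libraries and at 1297.59, 1437.84 and 1582.45 FPKM with AOS. With STZ it was at 2245.37, 1533.81 and 1729.37 FPKM, and with STZ+AOS at 1268.65, 1305.56 and 1192.94 FPKM. Transfer gave 1833.47, 1875.73 and 1372.97 FPKM in STZ+AOS-FMT and 1384.17, 2403.1 and 1753.96 FPKM in STZ+control-FMT. The 3 STZ+AOS libraries lay close together at the low end, among the 4 lowest of the 18, while STZ+control-FMT held both a low library and the highest one. By group mean the order was STZ+AOS (1256 ± 57.4, SD, n = 3), AOS (1439 ± 142), STZ+AOS-FMT (1694 ± 279), control (1789 ± 279), STZ (1836 ± 368) and STZ+control-FMT (1847 ± 516). Each neighbour in this order overlapped the next in its libraries.

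**Figure D1:**
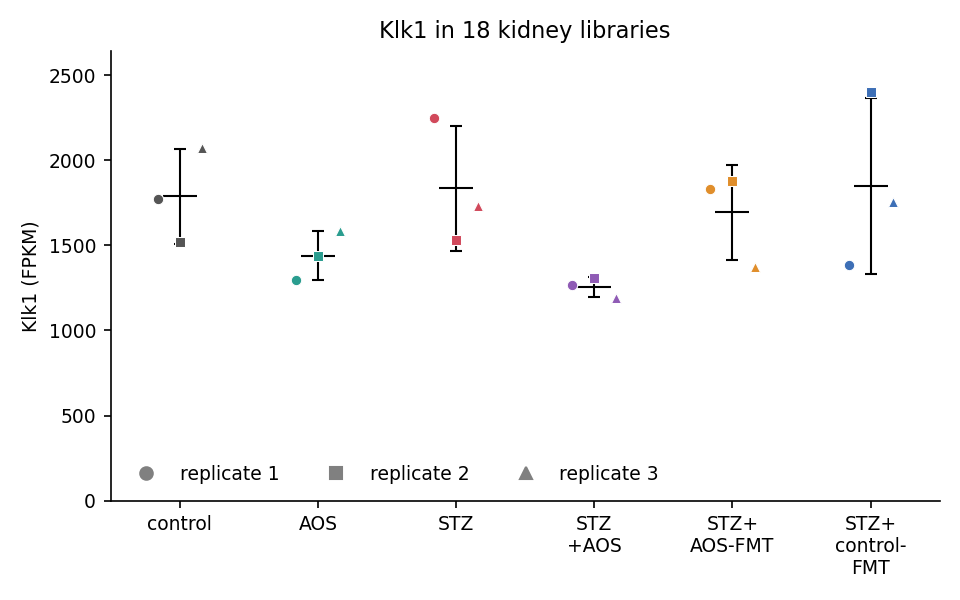
Klk1 level in FPKM (vertical axis, from 0) in the 18 kidney libraries by group (horizontal axis), with symbols for replicates 1 to 3 and black bars for the mean ± SD of n = 3. The 3 STZ+AOS libraries sit between 1192.94 and 1305.56 FPKM, below all 3 STZ libraries.

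Klk1 did not pass the test in any comparison. Differences are given on the log2(FPKM + 1) scale with their standard error, and adjusted p-values are from limma with Benjamini-Hochberg adjustment over all 12682 genes, called under 0.05. The largest difference was between STZ+AOS and STZ, a log2 difference of -0.53 ± 0.19 with an adjusted p of 0.0884 in limma, and the 2 groups did not overlap. In that comparison the median of all genes lay at 0.19, opposite in sign to Klk1. None of the 7 family members was called there by limma, against 4.53% of all genes, and Klk1 was the 1 member with an unadjusted p under 0.05, against 33.1% of all genes. It was also the 1 member with all STZ+AOS libraries below all STZ libraries, against 4.01% of all genes. Rescaling every library to a common median ratio moved the median of all genes to -0.01 and Klk1 to -0.76, with an adjusted p of 0.0474 in limma, which is a call. That was the 1 call of Klk1 in 18 alternatives, over which the adjusted p in limma ran up to 0.464. Quantile normalization, which moved the median of all genes to -0.02, gave no call of Klk1. Without STZ 1, whose Klk1 was the highest of its group, the difference was -0.38 with an adjusted p of 0.360. Markers of other cells also moved in this comparison. All 6 spermatid markers fell, from sums of 21.4 to 83.8 FPKM in STZ to at most 0.59 FPKM in STZ+AOS, and 2 of 9 proximal tubule markers fell, Slc22a6 and Slc13a3, where 1.1% of all genes fell. Of 7 adrenal markers 4 rose, from sums of 0.92 to 28.3 FPKM to sums of 72.9 to 1530 FPKM, where 3.44% of all genes rose. Their part in the Klk1 difference was not tested. AOS without STZ gave -0.31 ± 0.19 (95% interval -0.72 to 0.11) against control, with an adjusted p of 0.817 in limma. The interaction, which is the AOS effect under STZ less that without STZ, was -0.22 ± 0.27 (95% interval -0.81 to 0.36), with an adjusted p of 0.552 in limma, so the data hold no call of a difference between them.

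The summed markers of the connecting tubule were not lowest in the group where Klk1 was lowest. The 11 markers, among them the calcium-binding proteins S100g and Calb1 and the sodium channel subunits Scnn1a, Scnn1b and Scnn1g, were all tested and none was at 0 throughout. Their summed level was 895 to 1152 FPKM in AOS and 1889 to 2504 FPKM in STZ+AOS, the group with the lowest Klk1. It was 930 to 3480 FPKM in control and 1162 to 3406 FPKM in STZ. The sum was mostly S100g, with means of 632 FPKM in AOS and 1642 FPKM in STZ+AOS. The sums there averaged 1058 and 2197 FPKM. None of the 11 was called between STZ+AOS and STZ, where 8 were higher and 3 lower. Among the lower ones, Kl had its lowest group mean in STZ+AOS, at 118 FPKM against 151 FPKM in STZ. Between STZ+AOS and AOS 6 of them rose and 1 fell, with a median log2 difference of 0.75, where 39.3% of all genes rose and 7.18% fell. Between AOS and control none was called and 10 of 11 were lower, with a median of -0.61. Their part in the levels of Klk1 and its copies was not tested. In a whole-kidney library, fewer connecting tubule cells and less Klk1 RNA in each cannot be told apart.

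Klk1b5, the highest of the copies and the one most like Klk1, was lower with AOS than in control. It was at 3.72, 3.16 and 4.43 FPKM in control and at 1.76, 1.94 and 1.84 FPKM with AOS, the 3 lowest values of the 18 libraries. The groups did not overlap, and the log2 difference was -0.74 ± 0.13 with an adjusted p of 0.0464 in limma. Klk1b5 was 1 call among 7 members in this comparison, against 0.071% of all genes, which is 9 genes. The call was near the threshold and was kept under 5 of 17 alternatives, always with the same sign. It was lost without any 1 of AOS 1, AOS 2, AOS 3, control 1 and control 3, with adjusted p-values from limma of 0.150 to 0.344. It was also lost when the 2 groups were fitted alone (adjusted p = 0.812 in limma).

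The other 6 members had lower means with AOS than in control, but none passed. All 7 members had a negative difference from control, with a median of -0.36, where the median of all genes was -0.09. Klk1b8, Klk1b24 and Klk1b27 met the minimum in 3 libraries each, control 3 among them. They entered this count in part through a high control library, so the count is given as a description. Klk1b9, known as a binding protein of epidermal growth factor in the salivary gland, was at 1.41, 1.14 and 1.54 FPKM in control and at 0.58, 0.71 and 0.57 FPKM with AOS. These groups did not overlap, the log2 difference was -0.54 ± 0.21, and the adjusted p in limma was 0.817. Klk1b5 and Klk1b9 were the 2 members of 7 with all AOS libraries below all control libraries, against 10.2% of all genes. Klk1b3 was at 1.48, 0.55 and 1.4 FPKM in control and at 0.66, 0.3 and 0.37 FPKM with AOS, which overlap (-0.55 ± 0.32). Klk1b24 (-0.34 ± 0.26) and Klk1b27 (-0.36 ± 0.23) overlapped as well. Control 3 was the library with the highest Klk1b5, Klk1b24 and Klk1b27 of all 18, at 4.43, 1.53 and 1.39 FPKM. Klk1b8 was at 0.33, 0.48 and 1.45 FPKM in control and at 0.59, 0.51 and 0.39 FPKM with AOS. The sign of its difference turned in 5 of 17 alternatives.

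The AOS group had the lowest of the 6 group means in 5 of the 7 members, Klk1b3, Klk1b5, Klk1b9, Klk1b24 and Klk1b27. Over all genes tested the share with the lowest mean in AOS was 54.1%, so the position of AOS at the bottom was common in these libraries. Set against Klk1, the summed Klk1b level was 3.44 ± 0.415 per 1000 Klk1 FPKM in AOS, 5.57 ± 1.06 in control and 7.37 ± 1.58 in STZ+AOS (SD, n = 3). For Klk1b5 alone the ratio was 2.10 ± 0.0276 per 1000 in control, 1.29 ± 0.110 in AOS and 2.29 ± 0.283 in STZ+AOS. The Klk1b5 ratio in AOS, 1.16 to 1.36, lay below every control library, at 2.08 to 2.14, but overlapped STZ (1.29 to 1.81) and STZ+control-FMT (1.12 to 1.87), and lay below STZ+AOS-FMT (1.51 to 1.79).

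**Figure D2:**
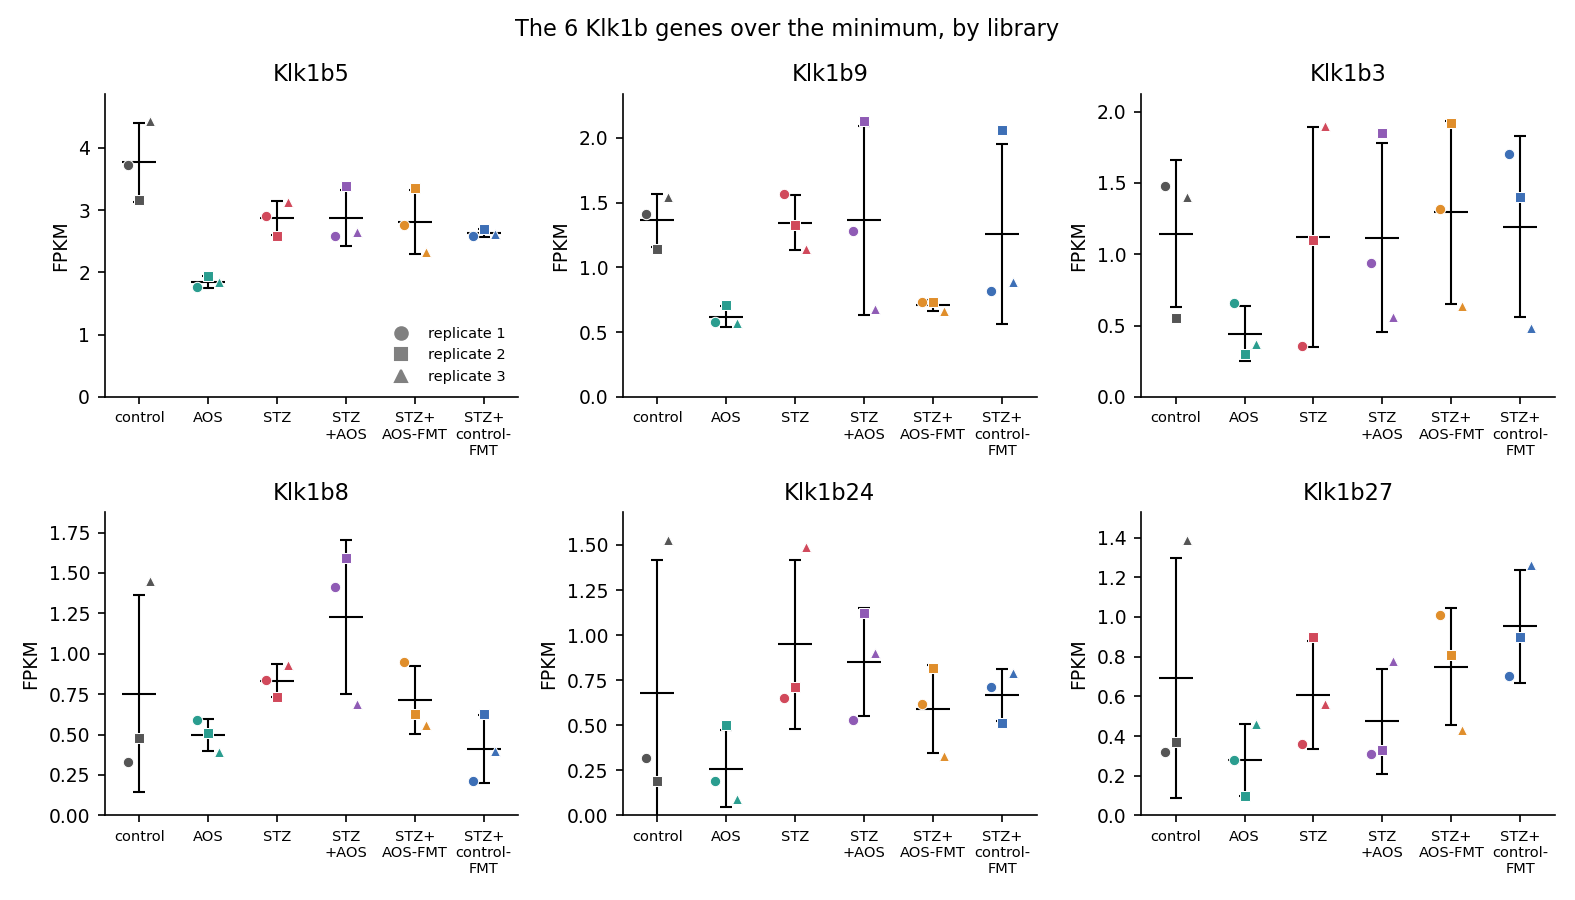
FPKM of the 6 tested Klk1b genes (vertical axes, each from 0 and on its own scale) by group (horizontal axes), with symbols for replicates 1 to 3 and black bars for the mean ± SD of n = 3, cut off at 0 where they would pass it. The 3 AOS libraries of Klk1b5 lie at 1.76 to 1.94 FPKM, below the 15 others, whereas the groups of Klk1b3, Klk1b24 and Klk1b27 spread widely.

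Klk1b5 and Klk1b8 were higher in STZ+AOS than in AOS. These were the 2 calls among 7 members, in a comparison where 46.5% of all genes were called and 39.3% were called higher, so the count of members was no larger a share than over all genes. Klk1b5 was at 2.59, 3.39 and 2.65 FPKM in STZ+AOS, above all 3 AOS libraries, with a log2 difference of 0.44 ± 0.13 and an adjusted p of 0.0145 in limma. Klk1b8 was at 1.41, 1.59 and 0.69 FPKM, also above all AOS libraries, with a log2 difference of 0.55 ± 0.21 and an adjusted p of 0.0462 in limma. Klk1b8 met the minimum through control 3, STZ+AOS 1 and STZ+AOS 2, so it entered the test in part through the group in which it is higher, and its call is given as a description. The median of all genes was 0.29 here, and it moved to -0.03 with quantile normalization and to -0.01 with median-of-ratios rescaling. Both calls were lost under both scalings. Klk1b5 then came to -0.05 and 0.19, and Klk1b8 to 0.12 and 0.39. Klk1b8 was called under 6 of 17 alternatives, and leaving out any 1 of AOS 1, AOS 2, AOS 3, STZ+AOS 1 and STZ+AOS 2 ended its call. Klk1b5 kept its call under 14 of 17 and lost it without STZ+AOS 2 (0.35, adjusted p = 0.0530 in limma).

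Klk1b24 and Klk1b9 had differences of like size in that comparison without passing. Klk1b24, which met the minimum through control 3, STZ 3 and STZ+AOS 2, had 0.53, 1.12 and 0.9 FPKM in STZ+AOS against 0.19, 0.5 and 0.09 FPKM in AOS, which do not overlap. Its log2 difference was 0.55 ± 0.26, with an adjusted p of 0.0842 in limma. With Klk1b5 and Klk1b8 it made 3 of 7 members whose STZ+AOS libraries all lay above the AOS libraries, against 49.7% of all genes. Klk1b9 held 1.28, 2.13 and 0.68 FPKM in STZ+AOS, the last of them within the AOS range (0.50 ± 0.21, adjusted p = 0.0631 in limma). Klk1 itself was on the other side of 0, at -0.19 ± 0.19 (95% interval -0.61 to 0.22). The comparisons that involve the AOS group, the interaction included, share its 3 libraries, so a low AOS level enters each.

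**Figure D3:**
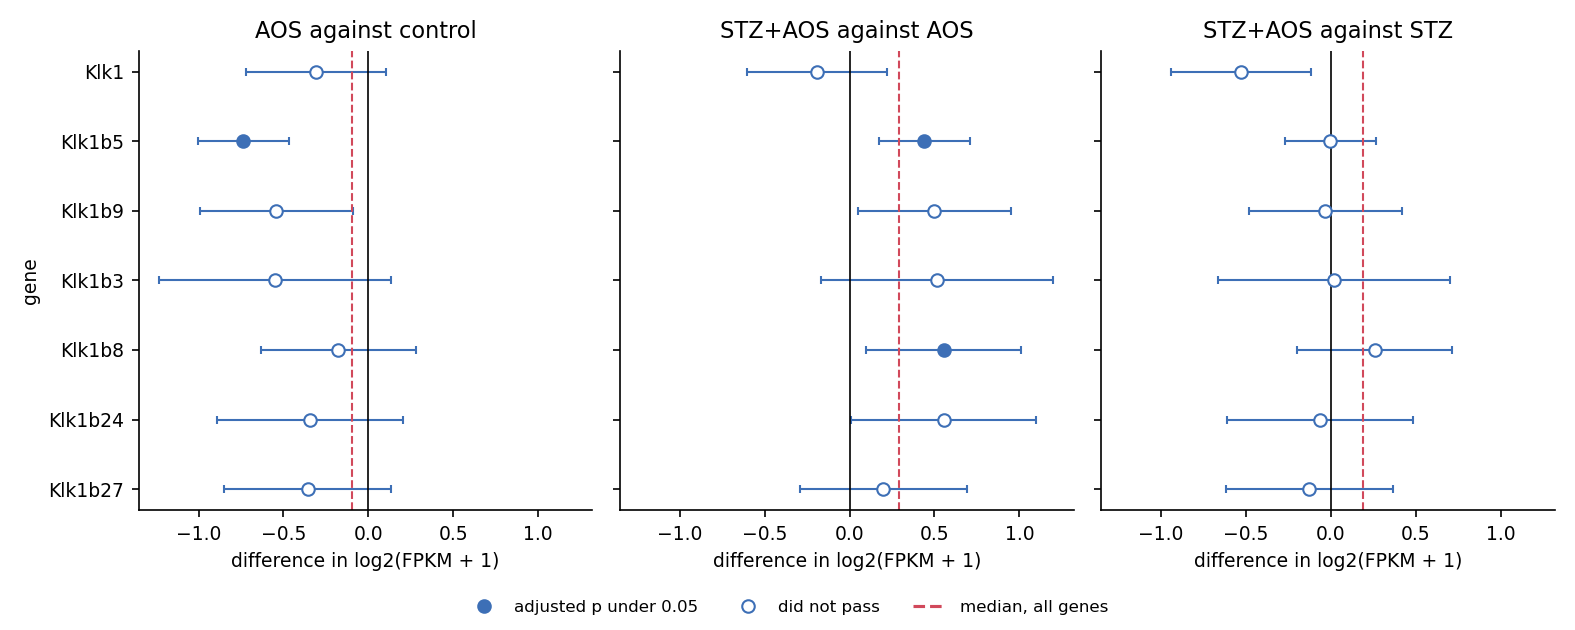
Differences of the 7 tested members on the log2(FPKM + 1) scale (horizontal axis) in 3 comparisons, with 95% intervals from limma, filled points for adjusted p under 0.05, a black line at 0 and a dashed line at the median of all genes. Klk1 lies at -0.53 between STZ+AOS and STZ while the median of all genes is at 0.19, and Klk1b5 lies at -0.74 between AOS and control.

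The interaction asks whether AOS acted differently with STZ than without it. None of the 7 members passed, and 0% of all genes did, although 33.4% of all genes had an unadjusted p under 0.05. Klk1b5 was the 1 member with an unadjusted p under 0.05, at a log2 difference of 0.73 ± 0.18, an unadjusted p of 9.03e-04 and an adjusted p of 0.0771 in limma. Leaving out STZ 3 brought its adjusted p in limma to 0.0256 (0.78), in a fit that called 3044 of the 12682 genes. In STZ kidneys the Klk1b5 level was 2.87 ± 0.271 FPKM without AOS and 2.88 ± 0.446 FPKM with it, so the 2 groups with STZ had near-equal means while those without STZ differed. The limma F test of any difference among the 6 groups called none of the 7 members, against 0.647% of all genes, and had 1 member at an unadjusted p under 0.05, against 31.1% of all genes.

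STZ by itself called no member in limma, as it called 0% of all genes. The result over all genes changed when control 3 and STZ 1, whose Kap levels stood apart from their groups, were both left out. Limma then called 1105 genes between STZ and control, still with no member among them. With either left out alone it called 0 genes. The 2 libraries were picked from these same data for standing apart, so the count of 1105 is a description. In the fit of all libraries, 1.27% of all genes and 1 member had an unadjusted p under 0.05. That member was Klk1b5, at 2.9, 2.59 and 3.13 FPKM in STZ against 3.16 to 4.43 FPKM in control. All STZ libraries lay below the controls, as in 2.08% of all genes, and the log2 difference was -0.29 ± 0.13 with an unadjusted p of 0.0336. Klk1 was at nearly the same mean in both groups, with libraries that overlapped.

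Neither transfer gave a call among the 7 members in limma, against 0.11% of all genes for STZ+AOS-FMT and 0.103% for STZ+control-FMT, each set against STZ. At an unadjusted p under 0.05 stood 1 member for STZ+AOS-FMT, Klk1b9, against 3.78% of all genes, and 0 for STZ+control-FMT, against 2.22%. Klk1b9 had the clearest separation. It was at 0.73, 0.73 and 0.66 FPKM in STZ+AOS-FMT, below the STZ libraries at 1.57, 1.33 and 1.14 FPKM and below the STZ+control-FMT libraries at 0.82, 2.06 and 0.89 FPKM. The log2 differences were -0.46 and -0.36. The share of all genes with every STZ+AOS-FMT library below the other group was 2.9% against STZ and 4.85% against STZ+control-FMT. Between the transfers 0% of all genes were called, 0 members had an unadjusted p under 0.05, and 1.65% of all genes did. Klk1b8 was lower in STZ+control-FMT, at 0.21, 0.63 and 0.4 FPKM, than in STZ, at 0.84, 0.73 and 0.93 FPKM (-0.38 ± 0.21). It was the 1 member of 7 that lay wholly below STZ there, against 2.22% of all genes. Klk1b5 was at 2.76, 3.35 and 2.33 FPKM with the AOS transfer and at 2.59, 2.7 and 2.61 FPKM with the control transfer, close to its STZ level.

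The remaining 7 genes of the cluster stayed under the minimum in the kidney. They were Klk1b1, Klk1b4, Klk1b11, Klk1b16, Klk1b21, Klk1b22 and Klk1b26, and their highest values ran from 0.1 to 1.08 FPKM. Klk1b4 passed 1 FPKM in 1 library, STZ 3. Klk1b26 was listed at 0 in 17 of 18 libraries. Just inside the minimum, Klk1b8, Klk1b24 and Klk1b27 reached 1 FPKM in 3 libraries each, and control 3 was among the 3 in every case. Klk1b3 and Klk1b9 did so in 9 libraries, and Klk1 and Klk1b5 in all 18.

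The level of a copy did not strictly follow its likeness to Klk1. Klk1b5 was first by both measures, at a mean of 2.80 FPKM with 40.5% of its 50-base stretches found in Klk1 at up to 2 mismatches. Klk1b4 was second by likeness, at 35.8%, and had a mean of 0.218 FPKM. Klk1b8, at 7.28%, had a mean of 0.74 FPKM. Klk1b9 and Klk1b3, next by level at means of 1.11 and 1.05 FPKM, stood at 25.7 and 22.7%. The part of reads shared between members in these levels was not tested.

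**Figure D4:**
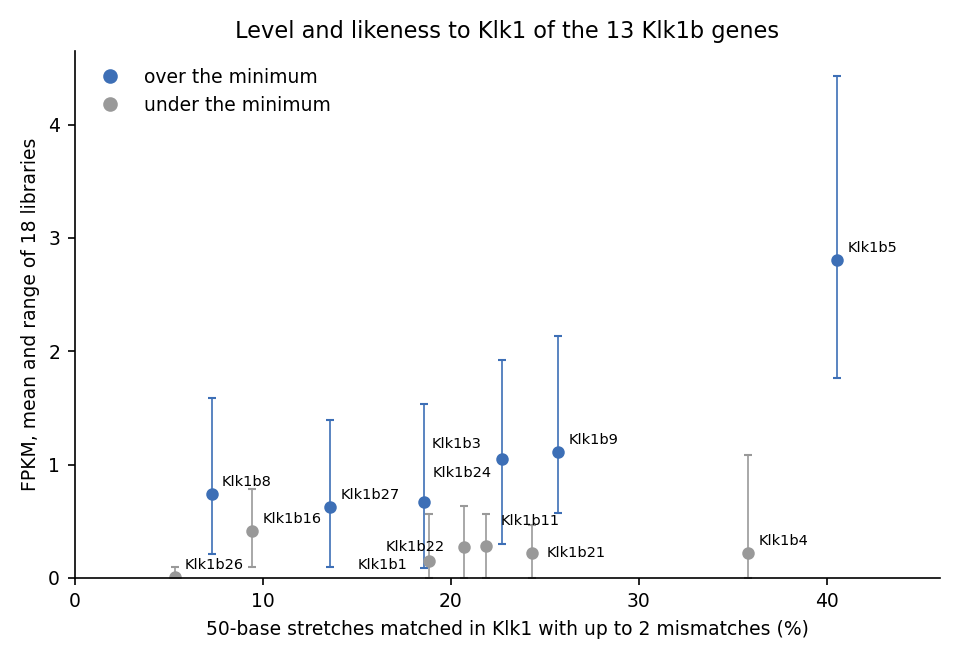
Mean FPKM over 18 libraries (vertical axis, bars from the lowest to the highest library) of the 13 Klk1b genes against the share of their 50-base stretches found in Klk1 with up to 2 mismatches (horizontal axis, percent), in blue for genes over the minimum. Klk1b5 lies alone at 40.5% and 2.80 FPKM, and Klk1b4 at 35.8% is among the low genes.

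Markers of the submandibular gland, where the copies are known to be abundant, were low in these libraries. Of its 12 listed markers 9 were in the table, and their sum was 1.27 to 9.41 FPKM, most of it Amy1, an amylase that other organs also make, the 1 marker that met the minimum. Smgc was at 0 in all 18 libraries, and Smr3a, Bpifa2, Muc19, Prol1 and Prb1 stayed at or under 0.19 FPKM. Bhlha15 reached 0.31 FPKM. Aqp5, a water channel of gland cells that other epithelia also make, read 0.16, 0.4 and 1.21 FPKM in the STZ+AOS libraries against 0, 0.05 and 0 FPKM in those of AOS. STZ+AOS is the group in which Klk1b8 was called higher than in AOS, and the part of these markers in it was not tested. Markers of other cell types moved with the groups compared here. The 7 adrenal markers summed to 72.9 to 1530 FPKM in STZ+AOS and to 1.09 to 1.5 FPKM in AOS, and all 7 rose between these groups, where 39.3% of all genes rose. The 6 spermatid markers summed to 30.3 to 42.7 FPKM in control and to at most 0.07 FPKM in AOS, and all 6 fell with AOS, against 0.071% of all genes. Their part in the Klk1b differences was not tested. Without the libraries with Cyp11b1 above 100 FPKM, the Klk1b5 difference between AOS and control was -0.64 with an adjusted p of 0.296 in limma.

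The proximal promoters of the copies share a short motif that Klk1's lacks. In RefSeq windows from 250 bases before to 50 bases after each start (GRCm38.p6), the letters TTTAAA on the gene's own strand occurred in 13 of the 14 genes, all but Klk1, and in 13.2% of 32851 promoters. In 12 genes a copy lay 13 to 48 bases before the start, shown in capitals for the called copies Klk1b5 and Klk1b8 and for Klk1b9.
Klk1b5: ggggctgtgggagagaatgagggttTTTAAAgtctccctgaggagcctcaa
Klk1b9: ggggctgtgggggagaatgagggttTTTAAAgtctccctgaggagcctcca
Klk1b8: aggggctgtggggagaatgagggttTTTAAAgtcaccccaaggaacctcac

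These 3 stretches lie at chr7:44216407-44216457, chr7:43976003-43976053 and chr7:43950597-43950647. The letters TATAAA, on the gene's strand, occurred in none of the 14 windows and in 8.32% of all promoters. The steroid receptor half-site TGTTCT, or AGAACA on the other strand, occurred in 2 of the 14, Klk1b24 and Klk1b3, against 19.0% of all. A match describes letters in a window and is not evidence of a binding site.

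Kap, the androgen-regulated marker, ran from 6174 to 155154 FPKM and served to compare the family with an androgen-dependent transcript. Over the 18 libraries its Pearson correlation on the log2 scale was 0.16 with Klk1, -0.37 with Klk1b5, -0.64 with Klk1b24 and -0.72 with Klk1b8. It was -0.25 with Klk1b9, -0.27 with Klk1b27 and -0.44 with Klk1b3. These points share their library and depth. Kap was a large part of some libraries, whose summed FPKM ran from 604807 to 725992. FPKM is relative to the library, so a high Kap by itself can lower the values of other genes. The correlations of all genes with Kap were not computed, so these values have no background beside them, and a link to androgen was not tested. Of 10 androgen-responsive kidney genes, 7 were lower and called in STZ+AOS against AOS, where 7.18% of all genes were, the comparison in which Klk1b5 and Klk1b8 rose.

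The members varied together only loosely. Over the 18 libraries the 21 pairs of tested members had Pearson correlations of 0.02 to 0.61 with a median of 0.42, all above 0. The pairs of Klk1 with a copy ran from 0.02 for Klk1b8 to 0.44 for Klk1b27. The genes outside the family with the pattern most like Klk1 were Atp5d (0.84), Timm13 (0.82), Bloc1s1 (0.81), Txn2 (0.80) and Gtf2h5 (0.76). For Klk1b5 they were Cenpn (0.75), Rab25 (0.72), Atg4c (0.72), Zfp758 (0.71) and Ccdc12 (0.71). For Klk1b9 they were 1110008P14Rik (0.80), Lrrc27 (0.78), Recql (0.78), Cyb5r3 (0.75) and Mtx2 (0.74). Without the 2 libraries farthest from each member's median, the correlations were 0.55 to 0.75 for Klk1b5, 0.67 to 0.80 for Klk1 and 0.64 to 0.88 for Klk1b9. The named genes were picked as the highest correlations among all tested genes. These are descriptions over 18 libraries that share groups and scaling.

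Substrates of the kallikreins were well expressed. Kng2, a kininogen, had a mean of 149 FPKM over the 18 libraries, and Egf, the precursor of epidermal growth factor, 216 FPKM, whereas the other kininogen, Kng1, was at 1.12 FPKM. Scnn1g, the sodium channel subunit that kallikrein can cut, rose in STZ+AOS against AOS (0.99 ± 0.28, adjusted p = 0.0150 in limma), in a comparison where 39.3% of all genes rose. It was called in no other comparison, and Kng1, Kng2 and Egf were called in none.

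The kinin receptors were near the floor of the data. Bdkrb2, the constitutive receptor, had a mean of 0.515 FPKM, with 2.04, 0.75 and 1.06 FPKM in STZ+AOS and 0.07, 0.17 and 0.14 FPKM in AOS. Bdkrb1, the inducible one, had a mean of 0.045 FPKM, and neither was tested. The plasma arm was likewise under the minimum, with Klkb1, plasma kallikrein, at a mean of 0.426 FPKM and F11 at 0 throughout. Of 11 other kallikrein-related peptidases in the table, Klk8 alone met the minimum, with a mean of 1.45 FPKM and no call.

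Of 16 peptidases that break down kinins 15 were tested, and calls fell only between STZ+AOS and AOS. There 3 rose, Cpm, Cpd and Prep, and 3 fell, Ace, Xpnpep1 and Anpep, which is 6 of 15 against 46.5% of all genes. Ace, which inactivates bradykinin, had the largest change of these. Its STZ+AOS libraries held 9.14, 28.85 and 27.4 FPKM and its AOS libraries 124.02, 101.61 and 94.06 FPKM (-2.38 ± 0.52, adjusted p = 0.00711 in limma). Of 6 tested serine protease inhibitors, Serpina3n (2.27 ± 0.47, adjusted p = 0.00640 in limma) and Serpina1b (1.52 ± 0.33) rose and Serpinf2 (-1.93 ± 0.49) fell in the same comparison. Spink1, a secreted trypsin inhibitor, was the most abundant of them, at a mean of 792 FPKM and without a call.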

How the data were processed

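RNA of 18 kidney samples was sequenced. Per the labels' protocols the tissue was frozen, RNA was taken up in Trizol and cleaned on columns, and libraries followed standard Illumina protocols. The submitters' processing notes name Bowtie 0.12.2 and mm10. The counter, annotation, read length and depth are not stated by any source used here. The authors deposited 1 table of values read here as FPKM; no header gives the unit, which was inferred from the values. The members and all gene lists were chosen with earlier results of these data known.

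Values plus 1 were put on the log2 scale and fitted for 12682 genes (at least 1 FPKM in at least 3 libraries) with 1 mean per group over 18 libraries in limma 3.58.1 (R 4.3.3), trend and robust, with Benjamini-Hochberg adjustment over all genes and a threshold of 0.05. The fit was tested on simulated data. With 3 against 3 libraries no permutation p can fall below 0.1, so none was computed. Every row with a family symbol is accounted for, and the 5 genes of most similar pattern are named for Klk1 and for Klk1b5 and Klk1b9, the copies of highest mean. Transcripts came from GENCODE M21, coordinates and promoters from RefSeq GRCm38.p6. Alternatives were 2 scalings, other filters, pseudocounts of 0.1 and 5, plain moderation, library weights, the replicate number as a block, fits of only the groups compared, and libraries left out. Marker and pathway lists were counted, not tested as sets, and 1 listed substrate is not reported here; of the lists not described in the report, 5 of 9 proximal tubule markers fell and Insl3, a Leydig cell marker, rose between STZ+AOS and AOS, and the exocrine pancreas list had no call.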

Additional observations from a re-analysis of the deposited data

How the results depend on the processing

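The count of family members called was 1 for AOS against control and became 0 with quantile normalization, median-of-ratios rescaling, a mean of at least 5 FPKM (which leaves only Klk1 tested), a pseudocount of 5, the replicate block, the removal of control 3 with STZ 1 or of every library over 100 FPKM of Cyp11b1, and only the groups compared. It ranged from 0 to 1 when replicates were left out singly. For STZ+AOS against STZ it was 0 and became 1 with median-of-ratios rescaling. For STZ+AOS against AOS it was 2 and became 0 with quantile normalization, median-of-ratios rescaling and a mean of at least 5 FPKM, 1 with no filter, the replicate block and only the groups compared, 5 with a weight for each library, and 0 to 3 with replicates left out singly, the 3 being without STZ+AOS 3. It was also 3 without both control 3 and STZ 1, and 3 without the Cyp11b1 libraries. For the interaction it was 0, and 0 to 1 with replicates left out, the 1 being without STZ 3, where 3044 of all genes were called against 0. For any difference among the 6 groups it was 0 and became 1 with no filter, 5 with library weights and 3 on removing both control 3 and STZ 1, and 0 to 2 with replicates left out. Over all genes the F test called 82, and 540, 6168 and 5393 in those 3 settings. The Klk1b5 difference between STZ+AOS and AOS reversed with quantile normalization, to -0.048. Beyond the smaller set of genes or libraries that some settings leave, the cause was not tested. Same-numbered libraries did not deviate together in every pair of any comparison (correlations of 0.544, -0.165 and 0.667 for STZ and control), so the numbers are not taken as pairs, and the replicate block left 0 calls for AOS against control and 1 for STZ+AOS against AOS. With 3 libraries a group, unknown depth and Klk1b levels near 1 FPKM, small differences of the copies were not detectable.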
